A study of Mus musculus with 10 samples.

Results

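The 10 genes described here make, move, break down or sense retinoic acid: *Stra6*, *Rdh10*, *Aldh1a2*, *Aldh1a3*, *Cyp26b1*, *Crabp1*, *Crabp2*, *Rara*, *Rarb* and *Rarg*. They were picked by symbol for their known place in retinoid metabolism and signaling, with earlier results of these data known. All 10 were found among the 52227 genes of the count table, and all 10 were among the 21664 genes tested, those with 10 counts or more in 3 or more libraries. They were measured by RNA-seq in the cortical hem (CH), the signaling center at the medial edge of the embryonic cortex, dissected by laser capture at e13.5. Of the libraries, 5 came from wild-type embryos and 5 from *Lmx1a*-/- embryos, each library pooling the sections of a single embryo. The *Lmx1a*-/- embryos were homozygous for *drJ*, a point mutation that inactivates this LIM-homeodomain transcription factor and leaves transcript and protein detectable. All embryos had a mixed C57Bl6, FVB and CD1 background. The comparison asks how loss of *Lmx1a* function changes these genes in the CH.

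Retinoic acid is a small lipid-soluble signal made from vitamin A. Cells take up retinol, oxidize it to retinal with retinol dehydrogenases such as Rdh10, and oxidize retinal irreversibly to retinoic acid with Aldh1a enzymes. Cyp26 enzymes degrade retinoic acid, Crabp proteins carry it inside the cell, and Rar receptors bind it and act on DNA as partners of Rxr receptors. Next to the embryonic cortex the meninges are a known source of retinoic acid.

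Retinoid receptors recognize a short motif in paired copies, and such pairs were looked for in the RefSeq promoters (GRCm38.p6, 250 bases before to 50 after each start). The motif was taken as AGGTCA or as the related forms AGTTCA (present in both pairs shown here), GGGTCA (not present in them) and GGTTCA (the first copy of *Rarb*). A pair was any 2 copies in the same orientation with 1, 2 or 5 bases between them, on either strand, and each pair also counts as single copies. Of the 10 genes, 7 had 14 promoters in the table, and *Rdh10*, *Aldh1a3* and *Crabp2* were not among them. *Rarb*, which encodes a receptor whose own gene is a textbook target of retinoic acid, was the only gene of the 7 whose promoter held a pair. Its spacing was 5 bases, which 0.0974% of the 32851 promoters in the table hold, while 0.222% hold a spacing of 1, 0.268% a spacing of 2 and 43.7% at least 1 copy. Among 46 other pathway genes with a promoter, *Cyp26a1*, which encodes a retinoic acid-degrading enzyme, also held the spacing of 5, and *Bco1*, which encodes a carotene-cleaving enzyme, held the spacing of 1. The 100 bases before the start of *Rarb* and *Cyp26a1* are shown 5′ to 3′ on the strand of the gene. They carry the only pairs with the spacing of 5 among these genes, and the 2 copies of each pair are in capitals. The *Rarb* stretch also holds a copy of GGGTCA outside the pair, left in lower case. The stretches lie at chr14:16575477-16575576 on the minus strand for *Rarb* and at chr19:37697708-37697807 on the plus strand for *Cyp26a1*.
Rarb: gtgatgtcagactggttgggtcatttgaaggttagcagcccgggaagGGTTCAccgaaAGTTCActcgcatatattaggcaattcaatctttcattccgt
Cyp26a1: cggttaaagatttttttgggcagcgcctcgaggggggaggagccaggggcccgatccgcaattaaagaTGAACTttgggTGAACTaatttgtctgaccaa
The pair of *Rarb* is read forward and spans bases 53 to 37 before the start. The pair of *Cyp26a1* is read on the opposite strand and spans bases 32 to 16 before the start. The letters TAATTA, a core that many homeodomain proteins recognize, were in none of the 14 promoters and in 5.29% of the table. These matches are a description of the letters in these windows.

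The libraries held 19145952 to 36462780 counts on genes, of which 20.56% to 27.63% were mitochondrial. *Lmx1a*, checked first, was at 45.6 to 90.8 normalized CPM (counts relative to the library total, after TMM scaling) in the wild-type and 89.9 to 144.9 in the *Lmx1a*-/- libraries (FDR = 0.0658, higher), so transcript abundance does not show the mutation. *Xist* was at 4399 to 5169 CPM in wild-type embryos 2 to 5 and at most 1.15 CPM in wild-type embryo 1 and all *Lmx1a*-/- embryos, where Y-linked genes summed to 341.3 to 451.3 CPM. Sex and genotype therefore cannot be told apart except through wild-type embryo 1. The defining CH markers *Lmx1a* and *Wnt3a* were above 40 CPM in every library. Of the 8 CH markers, 5 were lower and 1 higher in *Lmx1a*-/- embryos, with sums of 1251 to 2199 CPM in wild-type and 1412 to 1662 CPM in *Lmx1a*-/- libraries. Markers of other cells were present: 10 meningeal genes summed to 337 to 934.3 CPM in wild-type and 258.6 to 522.9 CPM in *Lmx1a*-/- libraries, 3 of them lower. Choroid plexus genes summed to 132.5 to 485.5 and 153.7 to 231 CPM, with 2 of 10 tested lower, 7 lower and 0 higher at an unadjusted p under 0.05 in edgeR, and *Kl* and *Cldn2* under the filter. Red blood cell genes summed to 590.1 to 1287 and 254 to 540.6 CPM, with none of 6 past the threshold and 3 lower at an unadjusted p under 0.05 in edgeR. None of 8 endothelial and 6 microglial genes passed, with 1 and 0 of them under that unadjusted p. Of the Cajal-Retzius cell genes, 3 of 5 were lower and 1 higher, and of the cortical neuroepithelium genes 1 of 6 was higher.

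Of the 10 genes, *Rdh10* was lower in *Lmx1a*-/- embryos and none was higher at a false discovery rate (FDR) under 0.1 in edgeR's quasi-likelihood test. Over all genes tested, 2.29% passed that threshold as lower and 1.72% as higher. *Rdh10* was also the 1 gene of the 10 whose libraries did not overlap between genotypes, a pattern found as lower in 2.27% of all genes tested. At an unadjusted p under 0.05, 3 of the 10 were lower (*Rdh10*, *Cyp26b1* and *Aldh1a3*) and 0 higher, against 8.7% and 7.66% of all genes tested. DESeq2 called 2 of the 10 lower, *Rdh10* and *Cyp26b1*, and 0 higher, against 4.51% and 3.65% of all genes tested. The median log2 fold change of the 10 genes was -0.33, and that of all genes tested was -0.0049.

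**Figure D1:**
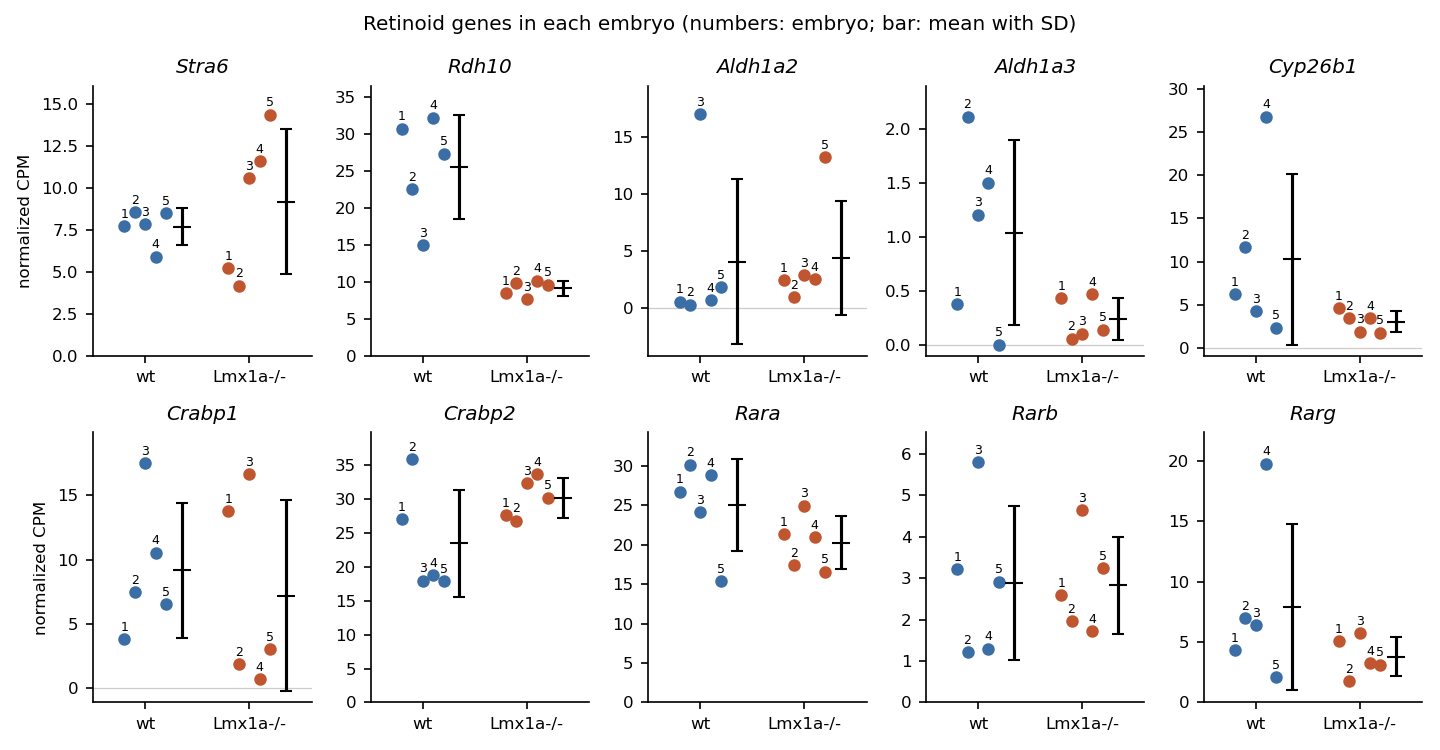
Normalized CPM (vertical axes, each with its own scale) of the 10 retinoid genes in 5 wild-type (wt, blue) and 5 Lmx1a-/- (orange) CH libraries; numbers name the embryo and bars give the mean with the SD. The genotypes separate for Rdh10, at 14.9 to 32.2 against 7.67 to 10.1 CPM, and overlap for the other 9 genes.

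*Rdh10* encodes the main retinol dehydrogenase of the embryo, for the first oxidation step towards retinoic acid. The gene lies at chr1:16105774-16133734 on the plus strand of GRCm38. It was at 30.7, 22.6, 14.9, 32.2 and 27.3 CPM in wild-type embryos 1 to 5, and at 8.48, 9.78, 7.67, 10.1 and 9.64 CPM in *Lmx1a*-/- embryos 1 to 5. The lowest wild-type library, embryo 3, stood above the highest *Lmx1a*-/- library. The means were 25.5 ± 6.98 (SD, n = 5) and 9.14 ± 1.03 CPM (SD, n = 5), a ratio of 2.79. The log2 fold change was -1.48 (SE 0.19, 95% interval -1.89 to -1.07, FDR = 0.00159), and *Rdh10* stood at rank 35 by p of the 21664 genes tested. In RNA of whole captured tissue, fewer cells that express a gene and less RNA per cell cannot be told apart.

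The *Rdh10* difference was read beside *Xist*, Y-linked transcripts and the meningeal and choroid plexus markers. No fit was made with the red blood cell genes, whose sums did not overlap between genotypes (590.1 to 1287 against 254 to 540.6 CPM). With each embryo left out in turn, the log2 fold change lay between -1.63 and -1.39, and the FDR between 9.86e-05 and 0.00607. Among the libraries with Y-linked transcripts, which left wild-type embryo 1 against 5 *Lmx1a*-/- embryos and assumes that the lone library varies like the others, it was -1.75 (FDR = 0.0196). With the *Xist* level as a covariate it was -1.77 (FDR = 0.0678). The marker covariates were the mean log2 CPM of the tested genes of a list, not their summed CPM. With the meningeal mean the log2 fold change was -1.53 (FDR = 0.0163). With the choroid plexus mean as a covariate it was -1.12 and no longer passed (FDR = 0.501). That fit called 9 genes lower and 8 higher in the whole table. In summed CPM, which is not the value fitted, choroid plexus genes were at 451.6, 485.5, 132.5, 297.5 and 418.4 CPM in wild-type embryos 1 to 5. In *Lmx1a*-/- libraries they were at 153.7 to 231 CPM. Wild-type embryo 3 had the lowest sum of all 10 libraries and the lowest wild-type *Rdh10*, 14.9 CPM, which was still above every *Lmx1a*-/- library. Wild-type embryo 4, with the highest *Rdh10*, 32.2 CPM, had the second lowest wild-type sum. Wild-type embryo 3 also had the lowest CH marker sum, 1251 CPM. The part of choroid plexus tissue in the *Rdh10* difference was not tested.

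**Figure D2:**
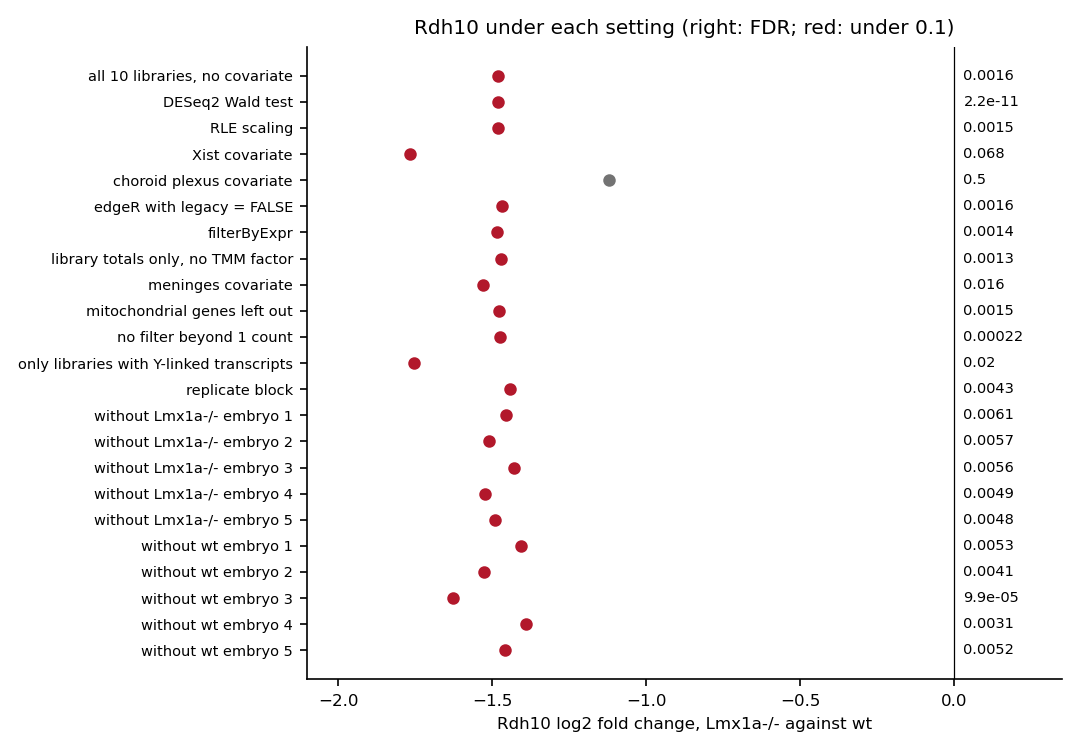
Log2 fold change of Rdh10 (horizontal axis, Lmx1a-/- against wt) in each of 23 fits (rows); the FDR stands at the right, and red points have an FDR under 0.1. All values are below 0, from -1.77 to -1.12, and the fit with the choroid plexus mean as a covariate is the 1 that does not pass.

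The pattern of 5 other tested genes over the 10 libraries was most like that of *Rdh10*, by the mean absolute difference of centered log2(CPM + 0.1) values, which counts the genotype difference too. *Gm5540*, a predicted gene, was closest at 0.178, with 0.853 to 1.97 CPM in wild-type and 0.417 to 0.652 CPM in *Lmx1a*-/- libraries. *Socs2*, which encodes a suppressor of cytokine signaling, was at 200.9 to 259.5 and 71.5 to 91.5 CPM (difference 0.185). *Mical2*, which encodes an actin-oxidizing enzyme, was at 16.3 to 28.8 and 7.42 to 11.3 CPM (difference 0.198). *Acsf2*, of the acyl-CoA synthetase family, was at 10.9 to 19.8 and 6.09 to 8.08 CPM (difference 0.206). *Nr4a2*, which encodes an orphan nuclear receptor, was at 33.3 to 69.4 and 13.5 to 25.5 CPM (difference 0.215). All of these were lower, at an FDR between 6.34e-06 and 0.0562. They were chosen for a pattern that includes the genotype difference, so these FDRs are no separate result.

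*Stra6* encodes a membrane receptor that takes up retinol from its carrier in plasma. It was at 7.73, 8.57, 7.85, 5.92 and 8.53 CPM in wild-type embryos 1 to 5, and at 5.25, 4.19, 10.6, 11.6 and 14.4 CPM in *Lmx1a*-/- embryos 1 to 5. The *Lmx1a*-/- libraries fell on both sides of the wild-type range, with 2 below it and 3 above. Its log2 fold change was 0.26 (SE 0.295, 95% interval -0.38 to 0.89, FDR = 0.718).

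*Aldh1a2* and *Aldh1a3* encode retinal dehydrogenases, which carry out the second oxidation. *Aldh1a2*, known for its expression in the meninges, was at 0.523, 0.271, 17.0, 0.623 and 1.77 CPM in wild-type embryos 1 to 5. It was at 2.39, 0.924, 2.83, 2.49 and 13.2 CPM in *Lmx1a*-/- embryos 1 to 5. Wild-type embryo 3 and *Lmx1a*-/- embryo 5 stood far above the other embryos of their genotype. The log2 fold change was 0.10 with an interval of -2.01 to 2.21 (FDR = 0.975). It was 2.43 (FDR = 0.117) without wild-type embryo 3 and -0.91 (FDR = 0.743) without *Lmx1a*-/- embryo 5, and it also changed sign without wild-type embryo 1, 2, 4 or 5. The meningeal sum of wild-type embryo 3 was the highest of all libraries, at 934.3 CPM, with 3 of the 10 listed genes at their highest and none at its lowest there. In *Lmx1a*-/- embryo 5 the sum was 470.8 CPM, within the range of its genotype. There 2 of the 10 listed genes were at their highest of all libraries, the defining marker *Foxc1* at 15.4 CPM and *Foxd1* at 3.93 CPM. None was at its lowest, and *Lum* was at its second lowest, 15.7 CPM. With the meningeal mean log2 CPM as a covariate the log2 fold change of *Aldh1a2* was 2.15 (FDR = 0.582), and with *Xist* 3.38 (FDR = 0.64). Among the libraries with Y-linked transcripts it was 3.05.

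*Aldh1a3* had the lowest level of the 10 genes per length of exon. It had 10, 47, 41, 29 and 0 counts in wild-type embryos 1 to 5 and 13, 1, 3, 17 and 4 counts in *Lmx1a*-/- embryos 1 to 5. The 0 stands in a library of 26931558 counts and allows up to 3 counts, for counting error only. These counts are 0.373, 2.12, 1.21, 1.51 and 0 CPM against 0.432, 0.054, 0.102, 0.471 and 0.139 CPM. Wild-type embryos 2, 3 and 4 were above every *Lmx1a*-/- library, and wild-type embryo 5 was below them all. With a log2 fold change of -2.05 (SE 0.90, FDR = 0.277), it did not pass. With *Xist* as a covariate it was -0.47 (FDR = 0.956), and among the libraries with Y-linked transcripts -0.59 (FDR = 0.914).

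In the sum of the *Aldh1a2* and *Aldh1a3* levels per kb, the share of *Aldh1a2* was 74.1%, 20.7%, 96.6%, 45.8% and 100% in wild-type embryos 1 to 5. In *Lmx1a*-/- embryos it was 91.5% to 99.5%. Wild-type embryos 3 and 5 were within or above that range, and the other 3 below it. The shares are given without a test.

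*Cyp26b1* encodes an enzyme that inactivates retinoic acid. It was at 6.23, 11.6, 4.27, 26.8 and 2.33 CPM in wild-type embryos 1 to 5, and at 4.59, 3.42, 1.87, 3.46 and 1.74 CPM in *Lmx1a*-/- embryos 1 to 5. Wild-type embryos 1, 2 and 4 were above every *Lmx1a*-/- library, and embryos 3 and 5 overlapped with them. The means were 10.3 ± 9.87 and 3.02 ± 1.2 CPM (SD, n = 5 each). The log2 fold change was -1.76 (SE 0.55, 95% interval -2.94 to -0.57) and did not pass (FDR = 0.126). It passed with DESeq2 (FDR = 0.0708), without the filter on low counts (FDR = 0.0915), without wild-type embryo 3 (FDR = 0.0821) and without wild-type embryo 5 (FDR = 0.0608). Without wild-type embryo 4, the highest library, it was -1.02 (FDR = 0.294). With *Xist* as a covariate it was -1.08 (FDR = 0.763), and among the libraries with Y-linked transcripts -1.05 (FDR = 0.572).

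*Crabp1* and *Crabp2* encode small cytoplasmic proteins that bind retinoic acid, and Crabp2 is known to deliver it to the receptors. *Crabp1* was at 3.85, 7.49, 17.5, 10.5 and 6.54 CPM in wild-type embryos 1 to 5 and at 13.7, 1.9, 16.6, 0.72 and 3.03 CPM in *Lmx1a*-/- embryos 1 to 5. *Lmx1a*-/- embryos 2, 4 and 5 were below every wild-type library, and embryos 1 and 3 were within the wild-type range. Its log2 fold change was -0.35 with an interval of -1.80 to 1.11 (FDR = 0.852), and it turned positive without wild-type embryo 3 (0.030, FDR = 0.991) and with *Xist* as a covariate (1.12, FDR = 0.818). *Crabp2* was at 27, 35.9, 18, 18.8 and 17.9 CPM in wild-type embryos 1 to 5, and at 27.7, 26.8, 32.4, 33.7 and 30.3 CPM in *Lmx1a*-/- embryos 1 to 5. Wild-type embryos 3, 4 and 5 were below every *Lmx1a*-/- library, and wild-type embryo 2 was above them all. Its log2 fold change was 0.36 (SE 0.184, 95% interval -0.04 to 0.76, FDR = 0.354). Without wild-type embryo 2 it was 0.56 and passed (FDR = 0.0905). Among the libraries with Y-linked transcripts it was 0.16 (FDR = 0.843). *Crabp2* made up 38.4% to 81% of the sum of both genes per kb in wild-type libraries and 54.2% to 96.6% in *Lmx1a*-/- libraries.

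The receptor genes *Rara*, *Rarb* and *Rarg* encode the ligand-activated factors that read the signal. *Rara* was at 26.7, 30.2, 24.1, 28.9 and 15.4 CPM in wild-type embryos 1 to 5, and at 21.4, 17.4, 24.9, 20.9 and 16.6 CPM in *Lmx1a*-/- embryos 1 to 5. Wild-type embryos 1, 2 and 4 stood above every *Lmx1a*-/- library, and embryo 5 below them. The genotypes differed by a log2 fold change of -0.30 (SE 0.175, 95% interval -0.68 to 0.07, FDR = 0.421).

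*Rarg* was at 4.33, 6.99, 6.41, 19.8 and 2.11 CPM in wild-type embryos 1 to 5, and at 5.05, 1.74, 5.76, 3.24 and 3.13 CPM in *Lmx1a*-/- embryos 1 to 5. Wild-type embryo 4 stood far above the other libraries, which overlapped. They differed by a log2 fold change of -1.05 (SE 0.495, FDR = 0.313), and of -0.39 (FDR = 0.709) without that embryo. With *Xist* as a covariate the value was -0.039 (FDR = 0.993), and among the libraries with Y-linked transcripts -0.19 (FDR = 0.952).

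*Rarb*, whose promoter holds the motif pair shown above, was at 3.21, 1.22, 5.79, 1.3 and 2.92 CPM in wild-type embryos 1 to 5. It was at 2.59, 1.96, 4.63, 1.72 and 3.24 CPM in *Lmx1a*-/- embryos 1 to 5, all within the wild-type range. Between genotypes its log2 fold change was -0.04 with an interval of -0.96 to 0.88 (FDR = 0.977), and its sign changed without wild-type embryo 3 or *Lmx1a*-/- embryo 2 or 4. Its counts are uncertain, since 1793 of its 5265 exonic bases overlap *Top2b* on the opposite strand, a gene at 590.9 to 932.7 CPM here, and 227 overlap the antisense gene *Gm48162*. Whether strand was used in counting is not given in the sources used here. None of the other 9 genes shared exonic bases with another gene. Of the 31 genes of the promoter table that hold the spacing of 5, 10 were tested, with 1 lower (*Ppbp*) and 1 higher (*Syndig1*), both named after their values were seen, and *Rarb* and *Cyp26a1* were among the other 8.

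In the sum of the 3 receptor levels per kb, *Rara* took 72 ± 9.3% in wild-type and 77.1 ± 5.18% in *Lmx1a*-/- libraries (SD, n = 5 each). *Rarb* took 7.66 ± 5.25% and 8.76 ± 2.66%, and *Rarg* 20.3 ± 11.7% and 14.2 ± 3.75%. *Rara* was the largest share in every library, and its lowest, 57.5%, was in wild-type embryo 4, where *Rarg* took 40.4%.

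**Figure D3:**
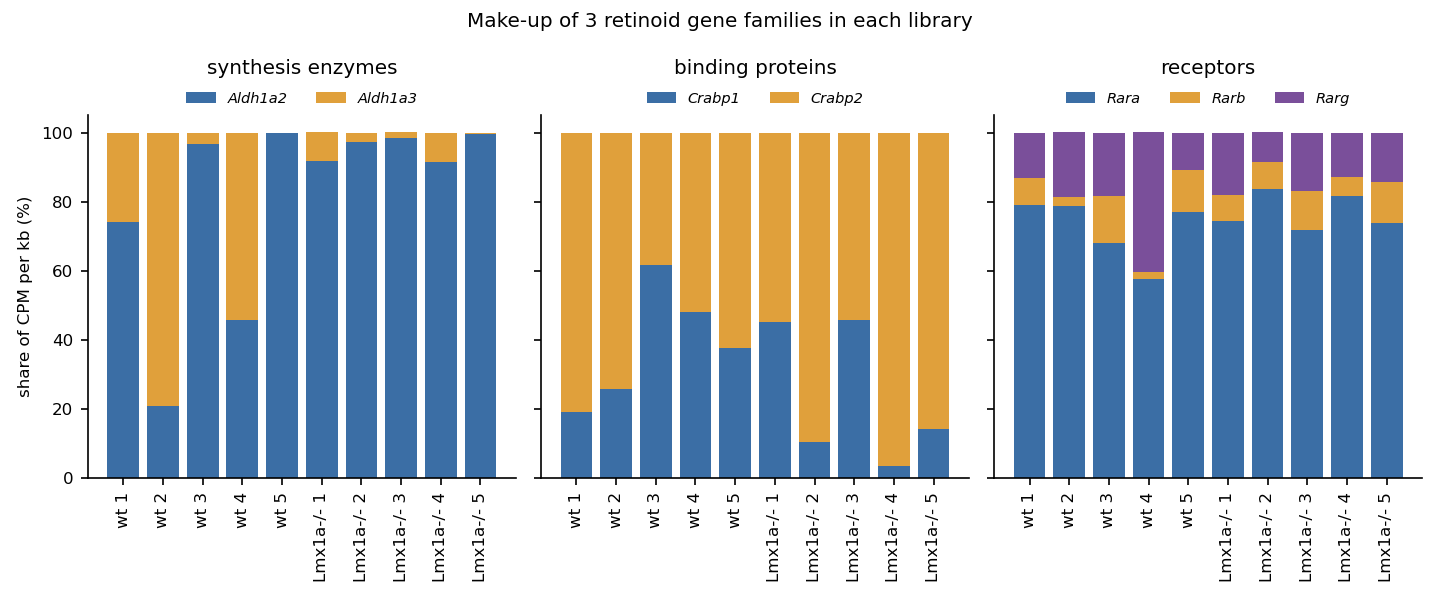
Share (%) of each gene in the summed CPM per kb of exon of its family (colors) in each of 10 libraries (horizontal axis), for the synthesis enzymes, the binding proteins and the receptors. Rara takes at least 57.5% of the receptor sum in every library, while Aldh1a2 ranges from 20.7% to 100% in wild-type libraries.

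Levels were compared between genes as CPM per kb of merged exon in the wild-type libraries. The order was *Crabp2* at 17.8 ± 5.98, *Crabp1* at 11.5 ± 6.52, *Rdh10* at 6.14 ± 1.68 and *Rara* at 5.74 ± 1.35 CPM per kb (SD, n = 5). It continued with *Cyp26b1* at 1.92 ± 1.84, *Rarg* at 1.86 ± 1.62, *Aldh1a2* at 1.78 ± 3.21 and *Stra6* at 1.32 ± 0.185 CPM per kb. *Rarb* at 0.548 ± 0.354 and *Aldh1a3* at 0.225 ± 0.186 CPM per kb were lowest. All 9 neighboring pairs had overlapping libraries, and 2 of them, *Rara* over *Cyp26b1* and *Stra6* over *Rarb*, had means further apart than either SD. In *Lmx1a*-/- libraries *Rdh10* stood at 2.2 ± 0.248 and *Rara* at 4.64 ± 0.768 CPM per kb. Among the genes tested, the wild-type level per kb of *Crabp2* was at percentile 90.9, that of *Rdh10* at 71.9 and that of *Aldh1a3* at 9.13.

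Around the 10 genes, 58 other genes of the pathway were listed, of which 41 were tested. Of these, 4 were lower, 2 were higher and 35 did not pass, with a median log2 fold change of -0.09. Over all genes tested, 2.29% were lower and 1.72% higher. At an unadjusted p under 0.05 in edgeR, 7 of the 41 were lower and 5 higher, against 8.7% and 7.66% of all genes tested. The list was written by hand with earlier results of these data known. By role, 1 of 4 carriers, 1 of 2 storage and cleavage genes and 2 of 5 genes of synthesis and breakdown were lower. Among nuclear receptors 1 of 8 was higher, and among coregulators 1 of 7. None of 9 other oxidoreductases and none of 5 genes often induced by retinoic acid passed, with 1 and 0 of them at an unadjusted p under 0.05 in edgeR.

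**Figure D4:**
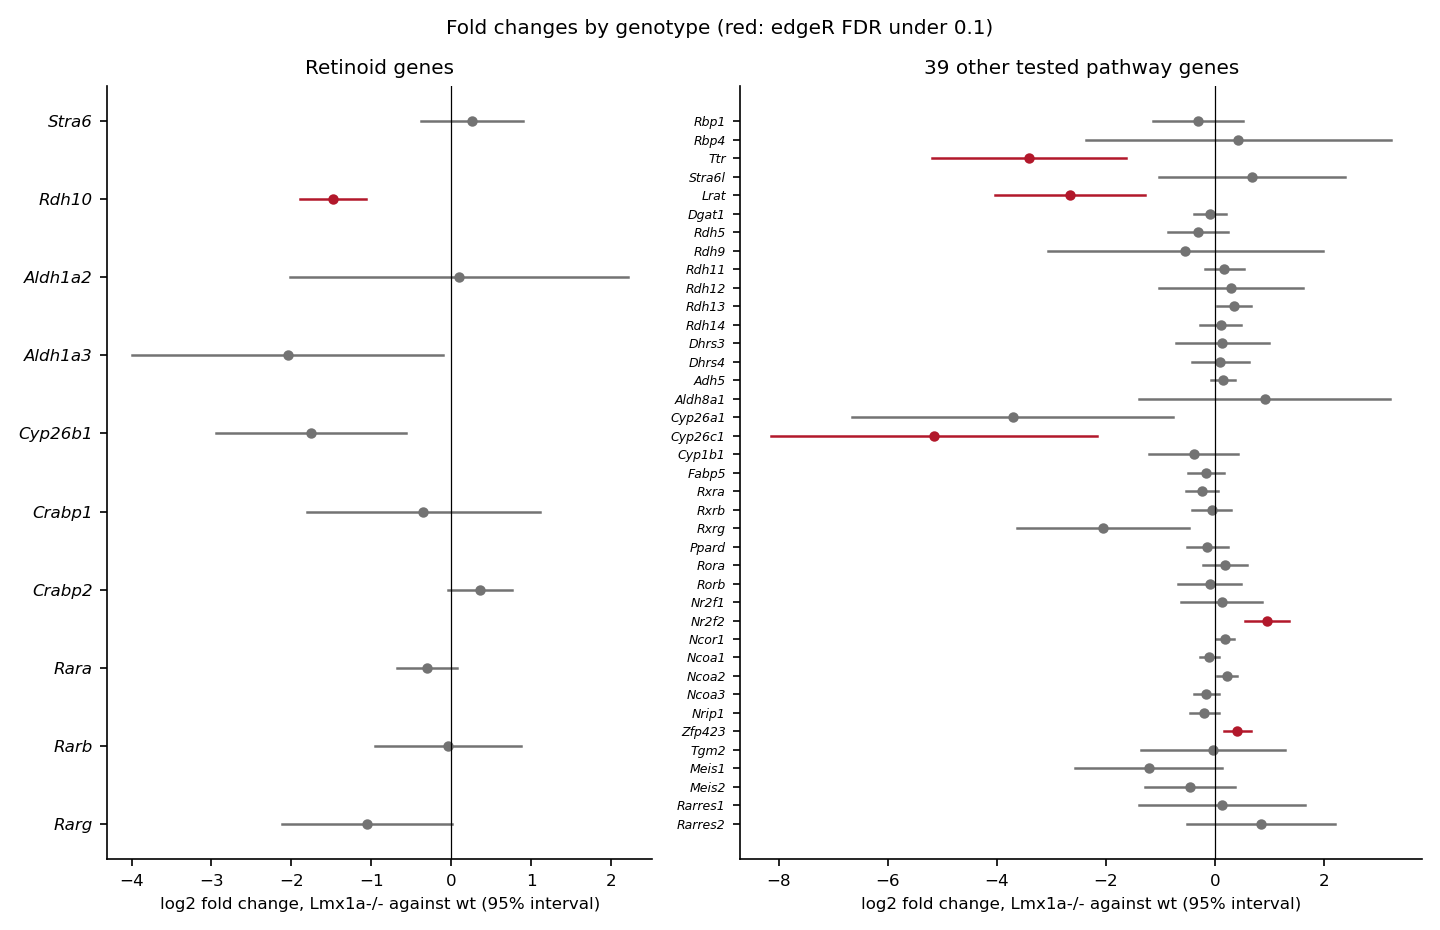
Log2 fold change (horizontal axis, Lmx1a-/- against wt) with its 95% interval for the 10 retinoid genes (left) and for 39 of the 41 other tested pathway genes (right, without Aldh1a7 among others); red marks an edgeR FDR under 0.1. Rdh10 is the 1 gene that passes on the left, at -1.48, and on the right Ttr, Lrat and Cyp26c1 are lower and Nr2f2 and Zfp423 are higher.

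*Lrat*, which encodes the enzyme that esterifies retinol for storage, was at 10.6, 0.767, 10.2, 8.46 and 5.28 CPM in wild-type embryos 1 to 5. It was at 1.9, 1.96, 0.579, 0.997 and 0.209 CPM in *Lmx1a*-/- embryos 1 to 5. Except for wild-type embryo 2, the wild-type libraries were above all others (log2 fold change -2.66, SE 0.641, FDR = 0.0507). The call was kept in 8 of 10 fits that left out an embryo, with FDRs of 0.0128 to 0.121.

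*Ttr*, which encodes a plasma carrier of retinol-binding protein and thyroid hormone and is a defining marker of choroid plexus epithelium, was at 123.5, 163.9, 5.74, 21.3 and 77.2 CPM in wild-type embryos 1 to 5. In *Lmx1a*-/- embryos it was at 1.14 to 15.1 CPM, above which all wild-type libraries but embryo 3 stood (log2 fold change -3.42, SE 0.824, FDR = 0.0512). It was kept in 5 of 10 fits that left out an embryo. *Ttr* is part of the choroid plexus mean, with which as a covariate its log2 fold change was 0.96 (FDR = 0.883). *Folr1*, the other defining marker of that list, was at 6.03 to 13.6 and 2.47 to 7.43 CPM (FDR = 0.115).

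*Cyp26c1* and *Cyp26a1*, the other retinoic acid-degrading *Cyp26* genes, were set by 1 library. *Cyp26c1* was at 1.01, 0.541, 0.0882, 17.6 and 0.406 CPM in wild-type embryos 1 to 5 and at 0 to 0.238 CPM in *Lmx1a*-/- libraries (log2 fold change -5.15, SE 1.39, FDR = 0.0768). Without wild-type embryo 4 it was -2.24 and did not pass (FDR = 0.308). *Cyp26a1*, with the motif pair, was at 8.1 CPM in wild-type embryo 4, at 0.135 to 0.471 CPM in the other wild-type embryos and at 0 to 0.409 CPM in *Lmx1a*-/- embryos (FDR = 0.188). In that embryo *Cyp26b1*, at 26.8 CPM, and *Rarg*, at 19.8 CPM, were likewise at their highest. *Meis1* and *Meis2*, homeobox genes often induced by retinoic acid, were also highest there, at 60.8 and 226.4 CPM, *Meis2* with 219.7 CPM in wild-type embryo 3. Of the other 3 tested genes often induced by retinoic acid, *Tgm2* at 0.415 CPM and *Rarres1* at 0.156 CPM were at their lowest of the wild-type libraries in embryo 4, and *Rarres2* was at 0.26 CPM. *Rarb* was at 1.3 CPM there, next to its lowest. Of the 10 meningeal genes, 3 were at their highest of all libraries in that embryo, among them *Twist1* at 57.8 CPM, while the defining marker *Foxc1* was at its lowest, 4.57 CPM. The meningeal sum of that embryo was 656.4 CPM, within the wild-type range, and its cortical neuroepithelium sum of 341.4 CPM was the lowest of all libraries. The part of these markers in the *Cyp26* values was not tested.

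**Figure D5:**
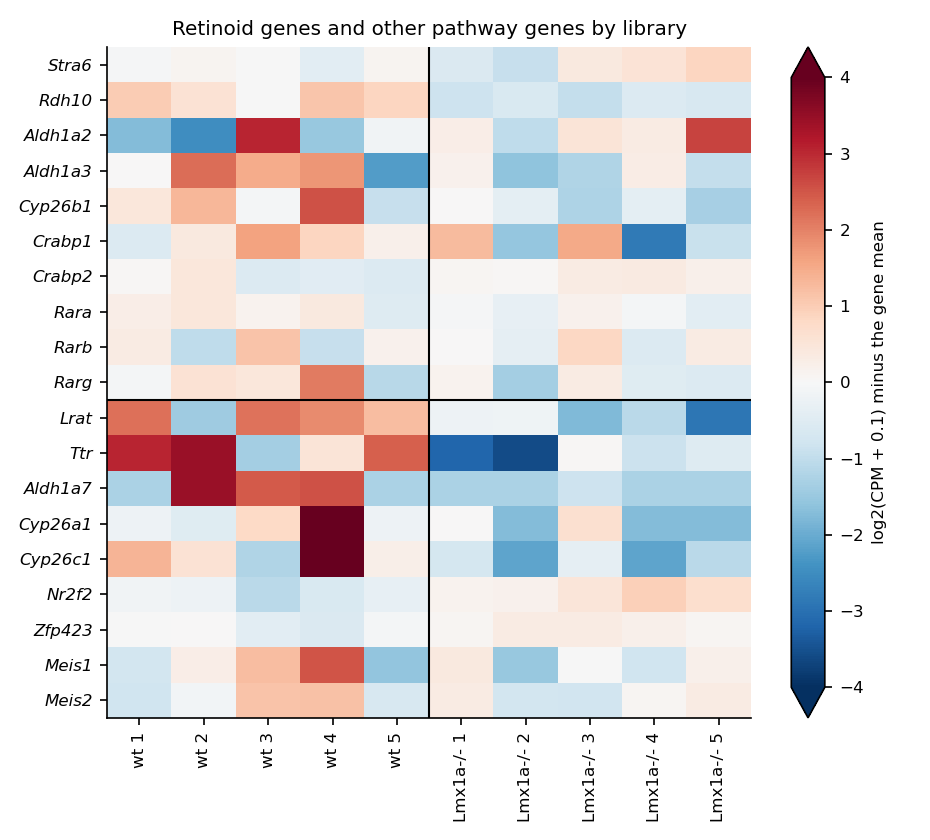
Log2(CPM + 0.1) minus the mean of the gene over all libraries (color, scale ending at -4 and 4) for the 10 retinoid genes (above the line) and 9 other pathway genes (below) in 5 wild-type and 5 Lmx1a-/- libraries. Cyp26b1, Rarg, Cyp26a1, Cyp26c1 and Meis1 are highest in wild-type embryo 4, and Aldh1a2 is highest in wild-type embryo 3 and Lmx1a-/- embryo 5.

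*Aldh1a7*, a close paralog of the retinal dehydrogenase gene *Aldh1a1*, had 0, 56, 41, 25 and 0 counts in wild-type embryos 1 to 5 and 1 count in all *Lmx1a*-/- embryos together (FDR = 0.0507). Whether reads were shared with *Aldh1a1* was not measured, so these counts are uncertain. *Aldh1a1* itself had 74 counts in wild-type embryo 2 and at most 10 in any other library. *Aldh1a1* was under the filter. *Aldh1a7* passed in 3 of the 7 fits without an embryo in which it was tested, and its sign changed with *Xist* as a covariate (FDR = 0.892).

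*Nr2f2*, which encodes the orphan nuclear receptor COUP-TFII, rose. It was at 64.8, 62.8, 33.7, 46.4 and 56.5 CPM in wild-type embryos 1 to 5 and at 78.9, 80, 99.3, 137.5 and 114.8 CPM in *Lmx1a*-/- embryos 1 to 5, without overlap. The log2 fold change was 0.95 (SE 0.188, FDR = 0.0202) and passed in all 10 fits that left out an embryo. Among the libraries with Y-linked transcripts it was 0.65 (FDR = 0.507). *Zfp423*, which encodes a zinc finger cofactor of retinoic acid receptors, was at 121.2 to 183.9 CPM in wild-type and 193.1 to 230.2 CPM in *Lmx1a*-/- libraries (log2 fold change 0.41, SE 0.115, FDR = 0.0874), and passed in 2 of those 10 fits. With *Xist* or the meningeal mean as a covariate none of the 6 called pathway genes passed. Among the libraries with Y-linked transcripts *Aldh1a7* and *Cyp26c1* were under the filter, and the log2 fold change of *Ttr* was -4.08.

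Per kb, the most abundant of the listed pathway genes in wild-type libraries included *Ttr*, the corepressor gene *Ncor1*, *Zfp423* and *Fabp5*, which encodes another carrier of retinoic acid. *Ncor1* was at 38 and *Fabp5* at 11 CPM per kb. Their log2 fold changes were 0.18 (FDR = 0.232) and -0.17 (FDR = 0.637).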

How the data were processed

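RNA from the laser-captured CH was isolated with the Pico Pure kit, and libraries were made with the SMARTER mRNA-Seq kit. Boundaries were set on neighboring sections stained for Lmx1a. Per the labels and methods, the authors used Trimmomatic on the reads, STAR 2.7.1a to align these to GRCm38 and HTSeq 0.11.2 to count reads per Ensembl gene. The deposited values are raw read counts per gene in 1 table. Of its 52508 rows, 281 exact repeats were dropped, and 52083 of the remaining genes had a symbol in GENCODE M21, the source of positions and exon lengths.

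Genes reaching 10 counts in 3 or more libraries were tested on the whole table with edgeR 4.0.16 (R 4.3.3; TMM, trended dispersion, quasi-likelihood test, Benjamini-Hochberg, FDR under 0.1), the study's filter and threshold. Each SE was taken as the log2 fold change over the root of its F statistic. The fit was tested on simulated data. Alternatives were DESeq2 1.42.0, other scaling and filters, covariates, a replicate block and each embryo left out. Embryo numbers were not used as pairs in the main fit.

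The genes and lists were chosen with earlier results of these data known. Named were all 10 genes, pathway genes past the threshold or among the 5 most abundant per kb, the 5 genes most like *Rdh10* and defining markers; other genes were named after their values were seen. A gene that this rule names is not reported here. Protein sequences were planned but not used here. The p-values set each genotype difference against the spread between embryos.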

Additional observations from a re-analysis of the deposited data

Results flagged for a closer look

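Each of the 10 genes was screened in each genotype for a library that stood apart from the others by Dixon's criterion at 95%. Chance meets it in about 1 of 20 groups if values are normally distributed, which was not checked for these CPM values. Of the 20 groups, 3 held such a library. *Aldh1a2* was at 17.0 CPM in wild-type embryo 3, with a gap to the next library of 0.91 of the range. *Aldh1a2* was also at 13.22 CPM in *Lmx1a*-/- embryo 5, with a gap of 0.845 of the range. *Rarg* was at 19.77 CPM in wild-type embryo 4, with a gap of 0.723 of the range.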

How the results depend on the processing

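*Rdh10* kept its direction in all 22 alternatives and passed in 21, the exception being the choroid plexus covariate (-1.12). The count of the 10 genes called lower (1) was 2 with DESeq2 and without a filter, 0 with the choroid plexus covariate, and 1 to 2 with an embryo left out; that of genes called higher was then 0 to 1.

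Pathway genes called lower (4) numbered 2 with DESeq2 or filterByExpr, 1 among the libraries with Y-linked transcripts, 0 with the *Xist*, choroid plexus or meningeal covariate or at an FDR of 0.05, and 0 to 4 with an embryo left out. The fewest were 0 without *Lmx1a*-/- embryo 4, 1 without *Lmx1a*-/- embryo 2 or 5 or wild-type embryo 1, and 2 without wild-type embryo 2 or 4. Those called higher (2) numbered 0 with the *Xist* or meningeal covariate or among the libraries with Y-linked transcripts, 1 with the choroid plexus covariate or at an FDR of 0.05, and 1 to 3 with an embryo left out. Over all genes, 497 were lower and 373 higher. These counts were 976 and 790 with DESeq2, 26 and 1 with the *Xist* covariate, 9 and 8 with the choroid plexus covariate, 176 and 97 with the meningeal covariate, 86 and 44 among the libraries with Y-linked transcripts, and 251 and 197 at an FDR of 0.05. With an embryo left out they were 261 to 604 and 190 to 455. Library totals without TMM factors gave 427 and 430. The causes were not tested.

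The sign of 3 genes that did not pass was not stable. *Aldh1a2* was at 3.38 with the *Xist* covariate, at 3.05 among the libraries with Y-linked transcripts, at -1.19 with the choroid plexus covariate, at -0.089 with edgeR's newer dispersion method (legacy = FALSE), and at -0.91 to 2.43 with an embryo left out. *Crabp1* was at 1.12 with the *Xist* covariate, 0.31 with the meningeal covariate, 0.91 among the libraries with Y-linked transcripts, and -0.92 to 0.030 with an embryo left out. *Rarb* was at 0.78 with the meningeal covariate and -0.30 to 0.38 with an embryo left out. DESeq2 gave no adjusted p for *Aldh1a2*, *Aldh1a3*, *Aldh1a7* and *Cyp26c1*.

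Same-numbered embryos correlated at -0.0985 to 0.0133, which gave no sign that the numbers mark pairs. These values cannot show which embryos shared a litter. The paper calls the wild-type embryos littermates, and the labels name no litter. With a replicate block by number, *Rdh10* was at -1.44 (FDR = 0.00434), *Rarb* at 0.10, and 1 of the 10 genes was lower. With this block 1 pathway gene was lower and 1 higher, and 353 genes were lower and 248 higher in the whole table.

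Depth limits *Aldh1a3*, *Aldh1a7*, *Cyp26a1* and *Cyp26c1*, which had counts of 0 in some libraries.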
